A study of Mus musculus with 16 samples.

Results

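Transcripts of 10 ion channel genes were followed in whole thyroid glands of mice on a chow or a high-fat, high-sucrose diet: the potassium channel pore Kcnq1 with its beta subunits Kcne1, Kcne2 and Kcne3, the cation channels Hcn2 and Asic2, the anion channels Ano1 and Cftr, and the mechanosensitive channels Piezo1 and Piezo2. The genes were chosen by name. Kcne1, Hcn2, Asic2 and Piezo2 were selected on their change with diet in these same counts, so their values are given as a description with no test. Rows for 9 of the 10 genes were found among 21640 genes, and Kcne2 was not analysed here. Of the 9, 5 (Kcnq1, Kcne3, Cftr, Ano1 and Piezo1) had not been picked for their change.

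The 16 male wild-type C57Bl/6J mice went on their diets at 8 weeks of age. Control diet (CD) mice ate chow, and HF+SD mice ate a high-fat diet and drank sucrose water. Thyroids were taken after 3 or 6 weeks, with 4 mice per diet and time, 1 poly(A) library per mouse and no genetic change in any group. Libraries held 30025256 to 48508653 counts. Levels are given in CPM, the usual counts relative to library size, after TMM scaling (trimmed mean of M-values) within a time point. Tg, the thyroglobulin gene, took 4.73 to 13.6% of the counts at 6 weeks and 26.8 to 29.7% at 3 weeks. The library names of 3 and 6 weeks begin with different numbers, so a difference in level between the times cannot be told apart from a difference between those series of libraries.

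Thyroid follicular cells take up iodide at their basolateral membrane with the sodium/iodide symporter and pass it to the follicle lumen. KCNQ1 assembles with KCNE2 there into a potassium channel that is constitutively open, and loss of either subunit is known to impair iodide uptake. KCNE subunits change the gating of the pore: KCNE1 gives a slow voltage-gated current, as in the heart and inner ear, whereas KCNE3, like KCNE2, holds the pore open. ANO1 is a calcium-activated anion channel that conducts iodide and lies at the apical membrane of thyroid cells, and CFTR is the cAMP-regulated chloride channel. PIEZO1 and PIEZO2 open on membrane stretch, the first widely in endothelium and epithelia, the second best known from touch-sensing neurons.

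Libraries of the CD at 6 weeks stood apart in their content of other tissue. The summed level of 15 skeletal muscle marker genes was 722 CPM in CD mouse M22 but 27270, 166031 and 97881 CPM in the other CD mice, of which M45 had the most, against 933 to 3298 CPM on the HF+SD. At 3 weeks the same sum was between 6.43 and 56.4 CPM in all 8 libraries. Results at 6 weeks that turn on these libraries are therefore given with a muscle score as a covariate, or with M22 as the sole CD library. M22 was low in muscle transcript but not free of other tissue. Its 5 parathyroid marker genes summed to 14764 CPM, against 2188 to 4355 CPM in the other CD mice and 462 to 1971 CPM on the HF+SD. The part of parathyroid tissue in the results was not tested. These samples are bulk tissue, in which fewer cells of a type and less RNA per cell cannot be told apart.

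Kcnq1 transcripts were higher on the HF+SD at both times under TMM scaling. At 6 weeks the CD group had 3.87, 1.96, 2.08 and 3.36 CPM (in the mouse order M22, M43, M45, M48, kept throughout), and HF+SD mice M5, M18, M34 and M35 had 6.01, 7.15, 6.11 and 8.76 CPM. The ranges did not overlap, and M22, with the least muscle transcript, was the highest CD mouse. This was a log2 fold change of 1.31 (SE 0.26, adjusted p = 0.00948, quasi-likelihood test of edgeR fitted across all genes). At 3 weeks CD mice M53, M54, M55 and M96 had 7.23, 7.56, 8.36 and 6.82 CPM, and HF+SD mice M7, M19y, M20y and M31 had 11.0, 10.4, 11.1 and 13.5 CPM. Again the groups did not overlap. The difference of 0.62 on the log2 scale (SE 0.12, adjusted p = 0.00820, edgeR) passed the test but was below the minimum of 1 that a call required. Exons of Kcnq1 share 3.0% of their bases with the antisense gene Kcnq1ot1, which had 890 to 2179 counts per library against 64 to 641 for Kcnq1, and the use of strand in counting is not given in the sources used here.

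The call for Kcnq1 at 6 weeks depended on the scaling and on the muscle-rich libraries. Its log2 fold change was 1.06 with the muscle score in the model (adjusted p = 0.0599), 0.85 with M22 as the sole CD library (adjusted p = 0.161) and 0.44 with libraries scaled to 8 thyrocyte genes (adjusted p = 0.134), the range over all alternatives being 2.95e-05 to 0.161. That scaling moved the median over all genes, on the log2 scale, from -0.01 to -0.92 at 6 weeks and from -0.01 to -0.52 at 3 weeks, and 4 of its 8 genes (Iyd among them) were themselves called higher at 6 weeks under TMM. At 3 weeks Kcnq1 had 0.10 under thyrocyte scaling (adjusted p = 0.642) and 0.62 in a fit of all 16 libraries (adjusted p = 0.0880), and the range over alternatives was 4.99e-05 to 0.642.

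The KCNE subunits differed widely in how far they moved. Kcne1 had few counts on the CD, with 0.631, 0.297, 0.227 and 0.256 CPM at 6 weeks (7 to 22 counts per library) and 0.743, 1.47, 0.231 and 0.118 CPM at 3 weeks (5 to 52 counts). On the HF+SD it reached 14.9, 26.2, 23.1 and 30.0 CPM at 6 weeks and 12.3, 14.4, 12.5 and 17.7 CPM at 3 weeks. The diets were separated by a wide gap at both times, and the CD mice at 3 weeks varied most among themselves (coefficient of variation 96.1%). The ratio of the group means was 66.7 at 6 weeks and 22.2 at 3 weeks, and the log2 fold change ranked 5 of 18249 genes at 6 weeks and 11 of 17238 at 3 weeks, counted from the highest. At 6 weeks it was 6.05 as fitted, 5.21 with M22 as the sole CD library and 5.22 under thyrocyte scaling. At 3 weeks it was 4.50 as fitted, 5.28 without CD mouse M54 and 5.46 with the muscle score as a covariate.

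Kcne3 was low on the CD as well but moved less than Kcne1. Its 6-week values were 2.96, 2.81, 1.92 and 2.79 CPM in the CD group and 9.60, 8.00, 10.4 and 8.97 CPM in the HF+SD group. The groups were far apart, and CD mouse M45, with the most muscle transcript, was the lowest. Kcne3 rose by 1.82 on the log2 scale (SE 0.19, adjusted p = 0.000424, edgeR), and by 0.93 under thyrocyte scaling (adjusted p = 0.00737, range over alternatives 1.93e-17 to 0.0226), where it missed the fold minimum. At 3 weeks the values were 1.46, 1.92, 1.18 and 1.63 CPM for CD mice and 2.61, 3.33, 2.04 and 3.36 CPM for HF+SD mice. The groups lay side by side without overlap, and the log2 fold change of 0.87 (SE 0.22, adjusted p = 0.0276, edgeR) was under the fold minimum. It was 0.38 under thyrocyte scaling (adjusted p = 0.188) and 0.91 with the muscle score (adjusted p = 0.109), and the adjusted p was also over 0.05 without M53, M96, M7, M19y or M31 (0.0511 to 0.0851, range over alternatives 0.00283 to 0.188).

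**Figure D1:**
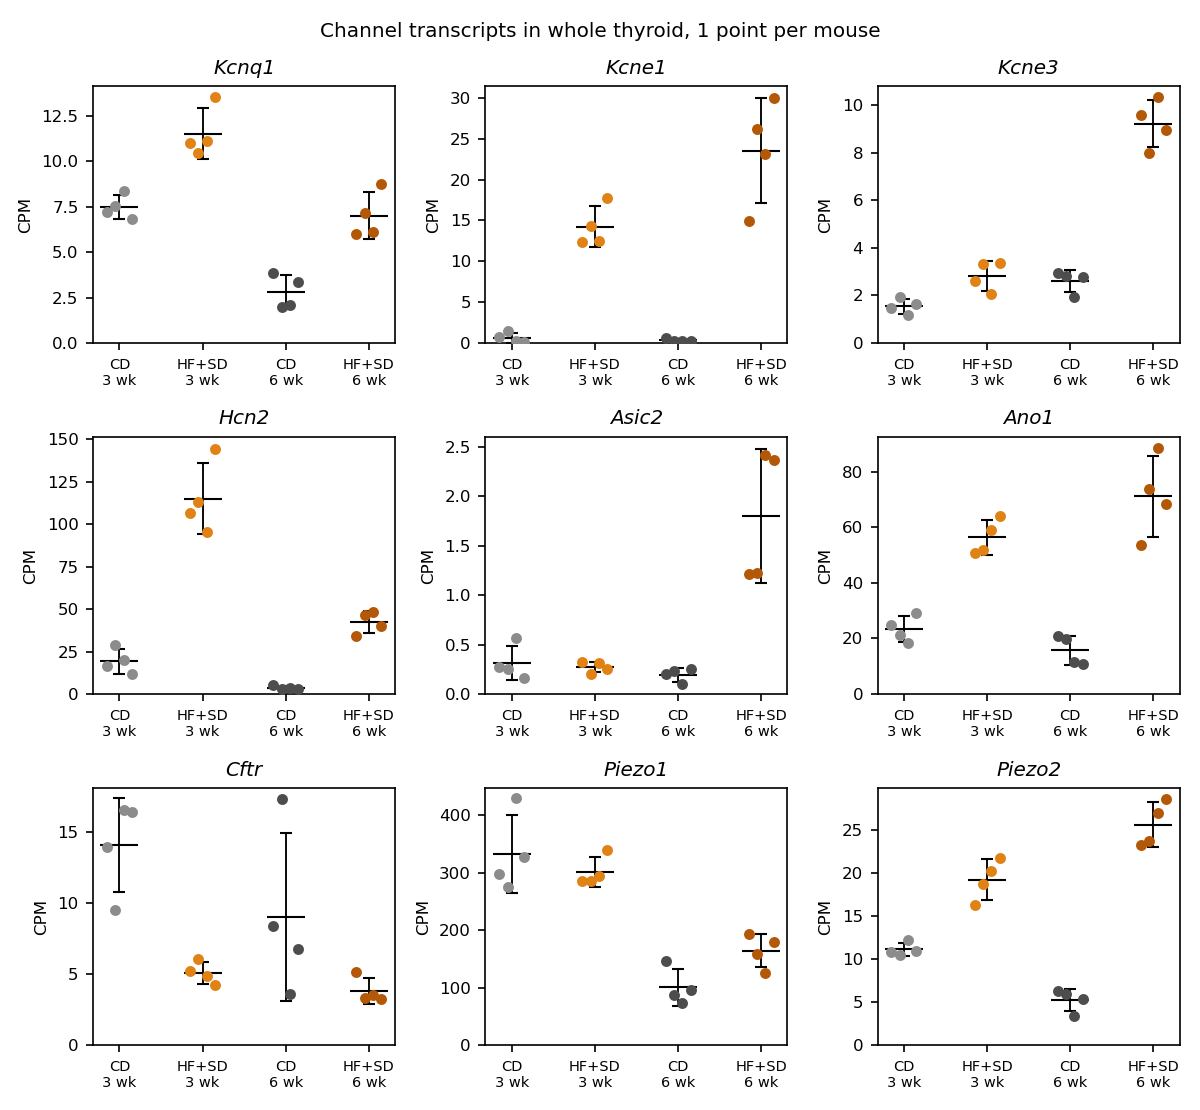
CPM of the 9 channel genes in each of the 16 thyroid libraries, by diet and weeks on diet. Points are mice, horizontal marks the mean and bars the SD (n = 4 per group). Cftr is the panel in which the HF+SD groups lie low, and Asic2 is raised in the HF+SD group of 6 weeks alone.

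Hcn2 encodes a hyperpolarization-activated cation channel, known as a pacemaker channel of heart and neurons. After 6 weeks it measured 5.48, 3.15, 3.25 and 2.99 CPM in the CD group and 34.2, 46.2, 48.5 and 39.9 CPM in the HF+SD group. After 3 weeks it measured 16.2, 29.0, 20.1 and 11.5 CPM in the CD group and 107, 113, 95.3 and 144 CPM in the HF+SD group. All 8 HF+SD mice lay above all CD mice of their time point, and M22 was again the highest CD mouse at 6 weeks. The ratio of the means was 11.4 at 6 weeks and 5.97 at 3 weeks. With M22 as the sole CD library the log2 fold change at 6 weeks was 2.94 in place of 3.50.

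Asic2, an acid-sensing sodium channel subunit of neurons and mechanosensory endings, was the rarest of the 9 transcripts. CD mice had 0.201, 0.228, 0.0975 and 0.256 CPM at 6 weeks (3 to 10 counts), and HF+SD mice 1.21, 1.22, 2.41 and 2.36 CPM (39 to 88 counts). At 3 weeks CD mice had 0.272, 0.254, 0.566 and 0.166 CPM and HF+SD mice 0.323, 0.205, 0.310 and 0.254 CPM. The diets were apart at 6 weeks, where the HF+SD mice formed a lower and a higher pair, and they overlapped fully at 3 weeks. The log2 fold change was 3.16 at 6 weeks and -0.20 at 3 weeks, and the latter turned to 0.37 with the muscle score and to 0.24 without CD mouse M55.

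The anion channels moved in opposite directions. Ano1 had 20.9, 19.6, 11.5 and 10.9 CPM in CD mice at 6 weeks and 53.5, 73.8, 88.6 and 68.4 CPM in HF+SD mice. At 3 weeks it had 25.0, 21.3, 18.3 and 29.0 CPM in CD mice and 50.6, 51.8, 58.8 and 64.0 CPM in HF+SD mice. The lowest HF+SD mouse was well above the highest CD mouse at each time. Ano1 rose by 2.18 on the log2 scale (SE 0.26, adjusted p = 0.000804, edgeR) at 6 weeks and by 1.27 (SE 0.14, adjusted p = 0.000682, edgeR) at 3 weeks. Under thyrocyte scaling it was 1.30 at 6 weeks (adjusted p = 0.00258, range over alternatives 2.16e-14 to 0.0219) and 0.74 at 3 weeks (adjusted p = 0.00569, range over alternatives 2.03e-13 to 0.00569), the latter below the fold minimum.

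Cftr was lower on the HF+SD at 3 weeks. CD mice had 13.9, 9.51, 16.5 and 16.4 CPM and HF+SD mice 5.25, 6.04, 4.89 and 4.21 CPM, so that every HF+SD mouse was below every CD mouse. This gave a log2 fold change of -1.47 (SE 0.19, adjusted p = 0.00122, edgeR), the rank 132 of 17238 from the lowest. At 6 weeks CD mice had 8.38, 17.3, 3.57 and 6.77 CPM and HF+SD mice 5.12, 3.32, 3.55 and 3.22 CPM. CD mouse M45 lay within the HF+SD range there, and CD mouse M43 was far above the others. A log2 fold change of -1.25 did not pass the test (SE 0.42, adjusted p = 0.0653, edgeR), whereas with DESeq2 it did (-1.26, adjusted p = 0.00984). In edgeR it was -0.74 without M43 (adjusted p = 0.120) and -1.52 without M45 (adjusted p = 0.0211). It was -2.11 under thyrocyte scaling (adjusted p = 0.00460), -1.28 in a fit of all 16 libraries (adjusted p = 0.00905) and -1.41 with the muscle score (adjusted p = 0.117). The adjusted p ranged over alternatives from 0.00460 to 0.151.

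Upstream windows of Hcn2 and Ano1, which were higher on the HF+SD, and of Cftr, which was lower, are shown to set their sequence side by side. RefSeq start sites (GRCm38.p6) were found for 7 of the 10 genes, and the 250 bases before the start are printed for Hcn2 (chr10:79716384-79716633, plus strand), Ano1 (chr7:144738574-144738823, minus strand) and Cftr (chr6:18170437-18170686, plus strand), 5′ to 3′ on the strand of the gene. Capitals mark the GC box, GGGCGG or CCGCCC on the other strand, and runs of capitals hold boxes that touch or overlap.
Hcn2: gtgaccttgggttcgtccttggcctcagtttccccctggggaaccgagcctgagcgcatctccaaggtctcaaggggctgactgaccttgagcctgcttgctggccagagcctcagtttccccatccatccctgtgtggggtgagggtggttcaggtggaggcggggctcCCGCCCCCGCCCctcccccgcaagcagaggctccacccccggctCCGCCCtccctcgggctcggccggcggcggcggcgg
Ano1: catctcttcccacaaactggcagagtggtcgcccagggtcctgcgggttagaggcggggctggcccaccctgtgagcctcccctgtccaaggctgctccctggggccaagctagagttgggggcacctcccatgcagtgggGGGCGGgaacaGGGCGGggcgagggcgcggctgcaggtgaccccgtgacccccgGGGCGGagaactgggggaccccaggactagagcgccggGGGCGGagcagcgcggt
Cftr: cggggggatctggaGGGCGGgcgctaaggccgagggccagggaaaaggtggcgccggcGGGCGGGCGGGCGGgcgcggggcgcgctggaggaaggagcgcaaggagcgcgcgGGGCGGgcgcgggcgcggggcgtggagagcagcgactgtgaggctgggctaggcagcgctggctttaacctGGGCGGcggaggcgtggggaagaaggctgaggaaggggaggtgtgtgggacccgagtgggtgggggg
The GC box was found 3 times before Hcn2, 4 times before Ano1 and 6 times before Cftr, and in 32.7% of 32851 such windows of all genes. GC content was 70.4% for Hcn2, 72.0% for Ano1 and 76.4% for Cftr, against a median of 52.4%. None of the 3 windows held the cAMP response element TGACGTCA (1.55% of all windows), its half-site TGACG or CGTCA (17.8%), CCAAT or ATTGG (33.8%), or TATAAA or TTTATA (12.4%). Among these 3 printed windows, GC-rich sequence with GC boxes lies before channels of either direction, and the letters describe the windows only. Windows of other members differed. Kcne3, also higher on the HF+SD, had a window of 46.8% GC with no GC box and another of 58.0% GC with 2. The windows of Asic2 (66.4% and 51.2% GC) held no GC box.

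Piezo1 was the most abundant of the 9 per length in 3 of the 4 groups. At 6 weeks CD mice had 147, 86.9, 72.3 and 95.1 CPM and HF+SD mice 193, 159, 126 and 179 CPM. CD mouse M22 lay within the HF+SD range. Its log2 fold change of 0.71 did not pass the test (SE 0.23, adjusted p = 0.0576, edgeR), and its sign turned to -0.12 under thyrocyte scaling (adjusted p = 0.681, range over alternatives 0.00464 to 0.743). At 3 weeks CD mice had 297, 276, 429 and 326 CPM and HF+SD mice 285, 285, 294 and 339 CPM. These groups overlapped fully (log2 fold change -0.14, SE 0.14, adjusted p = 0.511, edgeR). Exons of Piezo1 share 24.6% of their bases with Ctu2 on the opposite strand. Ctu2 itself had 182 to 464 counts per library against 2226 to 16685 for Piezo1.

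Piezo2 was far less abundant than Piezo1. At 6 weeks CD mice had 6.31, 5.92, 3.41 and 5.32 CPM and HF+SD mice 23.3, 23.7, 27.0 and 28.7 CPM. At 3 weeks CD mice had 10.8, 10.5, 12.2 and 10.9 CPM and HF+SD mice 16.3, 18.7, 20.3 and 21.8 CPM. The groups were tight and did not overlap at either time, with coefficients of variation of 6.73 to 24.5%. The ratio of the means was 4.90 at 6 weeks and 1.73 at 3 weeks. The log2 fold change at 3 weeks was 0.79, and 0.26 under thyrocyte scaling.

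Among the 5 genes not picked for their change, 3 were called higher at 6 weeks (Kcnq1, Kcne3 and Ano1), where 6.64% of 18249 tested genes were called higher and 6.01% lower. DESeq2 called Cftr lower at 6 weeks as well, as did edgeR under thyrocyte scaling, in the fit of all 16 libraries and without M45. At 3 weeks Ano1 was called higher and Cftr lower, where 3.25% of 17238 tested genes were called higher and 1.4% lower. Calls needed both an adjusted p below 0.05 and a log2 fold change beyond 1 in size. For the difference of the diet effect between 6 and 3 weeks, fitted over all 16 libraries, 0 of the 5 were called by edgeR, and 0.0581% and 0.0106% of 18929 genes were called with a larger and a smaller effect at 6 weeks. The differences were 0.64 for Kcnq1 (SE 0.30, adjusted p = 0.225), 0.89 for Kcne3 (SE 0.28, adjusted p = 0.0878), 0.86 for Ano1 (SE 0.29, adjusted p = 0.103), 0.80 for Piezo1 (SE 0.29, adjusted p = 0.120) and 0.19 for Cftr (SE 0.47, adjusted p = 0.853). At an unadjusted p under 0.05 in edgeR, 3 of the 5 passed, all with a larger effect at 6 weeks. The share of all genes at that threshold is not given here, so no excess among the channels is read from this count. By DESeq2 0 of the 5 were called. Without CD mouse M22, Ano1 (1.05, adjusted p = 0.0204, range over alternatives 0.0204 to 0.584) and Piezo1 (1.06, adjusted p = 0.00812, range over alternatives 0.00812 to 0.639) were called. That fit called 1489 genes in all, and its CD group at 6 weeks held only the muscle-rich libraries.

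**Figure D2:**
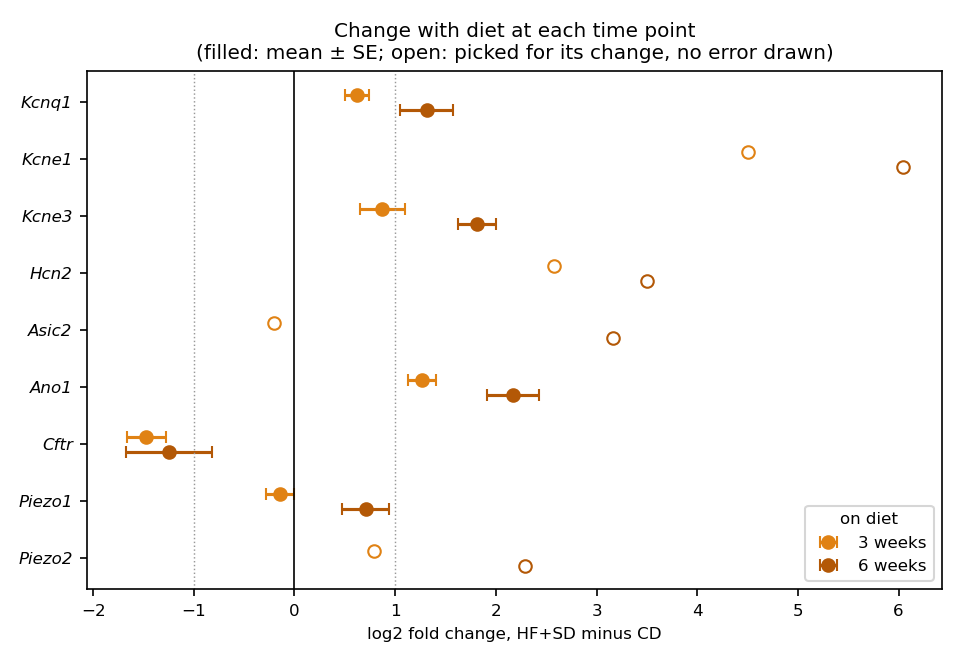
Log2 fold change, HF+SD minus CD, of each channel gene at 3 and 6 weeks. Filled points are the 5 genes with a test, with SE bars, open points are the 4 genes picked for their change, and dotted lines mark an absolute log2 fold change of 1. Cftr lies below 0 at both times, whereas Kcne1 lies at 4.50 and 6.05.

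Per kilobase of exon, the order of the channels differed between the diets. On the CD at 3 weeks Piezo1 (33.4 CPM per kb) was followed by Hcn2 (6.01) and Ano1 (3.75), whose ranges overlapped, then by Kcnq1 (1.83) and Cftr (1.82), whose ranges overlapped too. Kcne3 (0.870) and Piezo2 (0.648) overlapped next, and Kcne1 (0.199) and Asic2 (0.0737) were last, again with overlapping ranges. On the HF+SD at 3 weeks Hcn2 (35.9 CPM per kb) and Piezo1 (30.3) overlapped at the top, followed by Ano1 (9.02), Kcne1 (4.43) and Kcnq1 (2.81), then by Kcne3 (1.59) and Piezo2 (1.12), which overlapped, and by Cftr (0.656) and Asic2 (0.0640).

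At 6 weeks the same scale gave Piezo1 (10.1 CPM per kb), Ano1 (2.52), Kcne3 (1.47), Hcn2 (1.16), Cftr (1.16), Kcnq1 (0.688), Piezo2 (0.305), Kcne1 (0.110) and Asic2 (0.0459) on the CD. The ranges of Kcne3, Hcn2 and Cftr overlapped each other there. On the HF+SD Piezo1 (16.5), Hcn2 (13.2) and Ano1 (11.4) overlapped with their neighbours, Kcne1 (7.33) overlapped with Ano1 and with Kcne3 (5.19), while Kcnq1 (1.71) overlapped with Piezo2 (1.50) and Cftr (0.490) with Asic2 (0.423). Kcne1 thus stood last but Asic2 on the CD and just after Ano1 on the HF+SD at both times.

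Ratios within a library do not depend on how libraries are scaled. Kcne1 and Piezo2 were picked for their change with diet in these same counts. A separation of the diets in a ratio that holds either gene is therefore a description only. The ratio of Kcne1 to Kcnq1 per kilobase was 0.109 ± 0.104 for the CD and 1.57 ± 0.16 for the HF+SD at 3 weeks, and 0.159 ± 0.051 and 4.25 ± 0.76 at 6 weeks (SD, n = 4 in each group). The subunit transcript was the rarer of the 2 in all 8 CD libraries and the commoner in all 8 HF+SD libraries. The ratio of Kcne3 to Kcnq1 overlapped between diets at both times, with 0.481 ± 0.115 and 0.569 ± 0.127 at 3 weeks and 2.27 ± 0.70 and 3.13 ± 0.77 at 6 weeks (SD, n = 4). The ratio of Kcne1 to Kcne3 was 0.213 ± 0.173 and 2.83 ± 0.43 at 3 weeks and 0.0733 ± 0.0306 and 1.44 ± 0.48 at 6 weeks (SD, n = 4). Kcne1 was thus the commoner subunit transcript in all HF+SD libraries except that of M5, where the ratio was 0.859.

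Between the anion channels the balance went from 2.15 ± 0.58 Ano1 per Cftr in CD mice to 14.1 ± 3.7 in HF+SD mice at 3 weeks, and from 2.63 ± 1.15 to 24.5 ± 7.9 at 6 weeks (SD, n = 4). No library of either diet fell in the range of the other. Piezo2 to Piezo1 was 0.0198 ± 0.0025 and 0.0371 ± 0.0029 at 3 weeks, and 0.0310 ± 0.0064 and 0.0934 ± 0.0226 at 6 weeks (SD, n = 4). These ranges did not overlap within a time point either, although Piezo1 stayed the commoner transcript in every library. Piezo2 had been picked for its change, whereas Ano1 and Cftr had not. Because Ano1 and Cftr moved in opposite directions, the separation of their ratio restates the changes given above and is no further result.

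**Figure D3:**
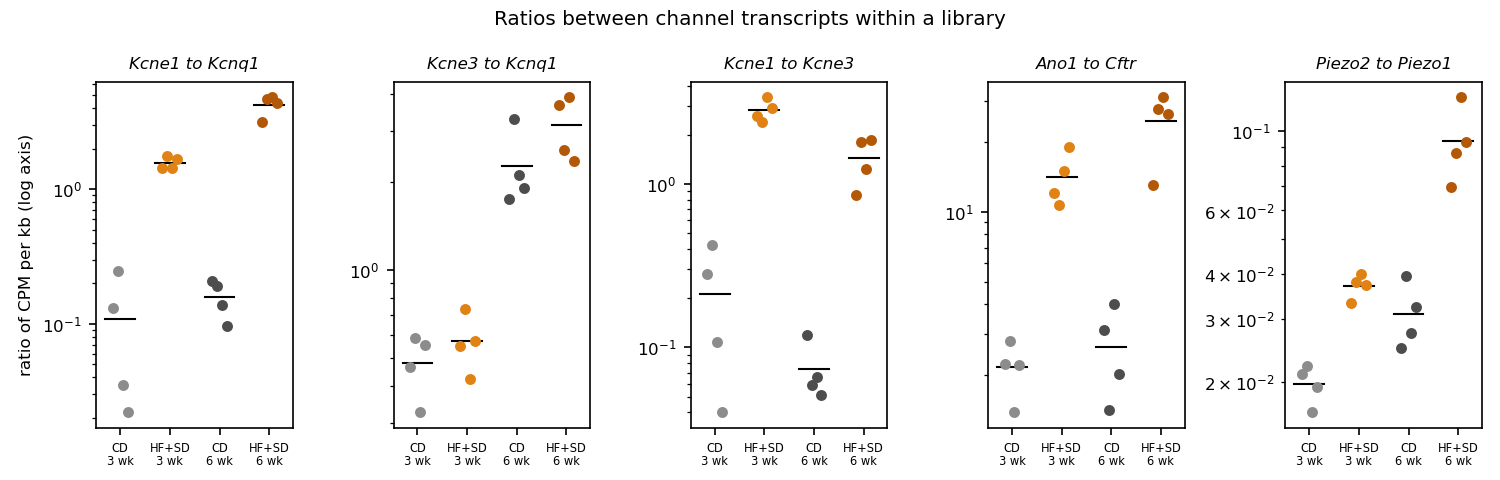
Ratio of CPM per kb between channel transcripts in each library, on a log axis, by diet and weeks on diet. Points are mice and lines the mean of 4. Among ratios of genes not picked for their change, the diets overlap for Kcne3 to Kcnq1 and are separated for Ano1 to Cftr. Ano1 and Cftr moved in opposite directions, so that separation restates their own changes. The diets are also separated for Kcne1 to Kcnq1, Kcne1 to Kcne3 and Piezo2 to Piezo1, each of which holds a gene picked for its change.

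The genes whose log2 CPM ran most closely with each channel over the 16 libraries, after the mean of each time point was taken away, were sought among 14743 genes. These correlations are descriptions over libraries that share diet, depth and tissue content. For Kcnq1 they were Exoc3l2, Adcy4 and Flt1 (Pearson r = 0.989, 0.983 and 0.983), of which Flt1 encodes a VEGF receptor of endothelium. With the mean of each group taken away instead, they were still at r = 0.957, 0.929 and 0.910. Piezo1 ran with Csnk1d, Tnks1bp1 and Kank3 (r = 0.964, 0.961 and 0.960), and at r = 0.926, 0.969 and 0.921 within groups. For the other channels the within-group values were lower, down to 0.749, 0.548 and 0.524 for the genes closest to Kcne3 and 0.749, 0.505 and 0.495 for those closest to Asic2.

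Hcn2 and Kcne1, both picked for their change with diet, shared Adm2, a peptide of the adrenomedullin family, among their closest genes (r = 0.992 and 0.989). Within groups these values were 0.889 and 0.845. Hcn2 and Kcne1 correlated with each other at r = 0.99 over the 16 libraries and at r = 0.78 within groups. The values over the 16 libraries hold the diet difference, so they are high between genes that both change strongly with diet. Piezo2 ran with Lama3, Tesc and Emcn (r = 0.985, 0.985 and 0.982), the last an endothelial sialomucin, and Kcne3 with C230072F16Rik, Tesc and Gm14221 (r = 0.976, 0.964 and 0.956). Ano1 was closest to Tmem116, Scamp5 and Entpd5 (r = 0.980, 0.979 and 0.979), Cftr to Fam184a, Cntnap3 and Rpl10 (r = 0.954, 0.943 and 0.939), and Asic2 to Oas1g, Smc4 and Kif1a (r = 0.938, 0.926 and 0.924). Kcne1 was also close to 1700018A04Rik and E330035G20Rik (r = 0.993 and 0.988) and Hcn2 to AU015791 and Card9 (r = 0.988 and 0.987).

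Markers of other cell types moved with some of the channels. The 8 endothelial genes summed to 326 to 416 CPM in CD mice and 1114 to 1231 CPM in HF+SD mice at 6 weeks, and to 395 to 495 and 712 to 1042 CPM at 3 weeks. Of the 8, 7 were called higher at 6 weeks and 2 at 3 weeks, Pecam1 with a log2 fold change of 1.77 and Kdr with 1.92 at 6 weeks (adjusted p = 0.000160 and 0.000216, edgeR), and none was at 0 in any library. Within groups, over 16 libraries, Kcnq1 ran with the endothelial level at r = 0.68 and with that of 10 thyrocyte genes at r = 0.71. The part of these cells in the result was not tested.

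Cftr moved with markers of C cells, the calcitonin-producing cells of the gland. The 7 C cell genes summed to 5763 to 10448 CPM in CD mice and 3984 to 4308 CPM in HF+SD mice at 6 weeks, and to 3456 to 5367 and 2826 to 3164 CPM at 3 weeks. All 7 had counts in every library, and 6 of 7 had a negative log2 fold change at each time, with 1 called at 6 weeks (Calcb). At 3 weeks 0 were called by edgeR or DESeq2 because of the fold minimum, and 5 were lower and 1 (Ret) higher at an unadjusted p under 0.05. CD mouse M43, highest for Cftr at 6 weeks, was highest for these markers. Within groups the correlation of Cftr with the mean log2 CPM of a list, not its sum, was 0.81 for C cell and 0.74 for neuron genes over 16 libraries. The neuron sums overlapped between diets at both times. Ano1 and Piezo2, both higher on the HF+SD, also ran with the C cell genes within groups, at r = 0.63 and 0.54. The part of these cells in the result was not tested. Adipocyte genes were lower on the HF+SD too, with 6 of 7 called at 6 weeks and 5 of 7 at 3 weeks. They summed to 1109 to 2015 CPM in CD mice and 397 to 750 CPM in HF+SD mice at 6 weeks, and to 887 to 1034 and 268 to 570 CPM at 3 weeks, with 0 of the 7 genes at 0 in any library. Cftr ran with them at r = 0.36 within groups, and their part was not tested. Genes of airway epithelium and glands, tissues that also use CFTR and ANO1, summed to 50.4 to 387 CPM in CD mice and 621 to 2464 CPM in HF+SD mice at 6 weeks, but to 62.9 to 238 and 49.2 to 82.3 CPM at 3 weeks. Of these 10 genes, 3 were called higher at 6 weeks and 2 at 3 weeks, with at most 1 gene at 0 in a library. Dcpp1, a secretory gene with near-identical copies that can share reads, had log2 fold changes of 6.03 and 6.67. It averaged 11.9 CPM in CD mice and 780 CPM in HF+SD mice at 6 weeks, the largest part of the HF+SD sum. At 6 weeks 8 genes of this list had a positive and 2 (Bpifb1 and Muc5b) a negative log2 fold change. Of 9 tested at 3 weeks, 5 were positive and 4 negative, and the 2 called were Dcpp1 and Dcpp2. The part of these airway and gland genes was not tested either.

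**Figure D4:**
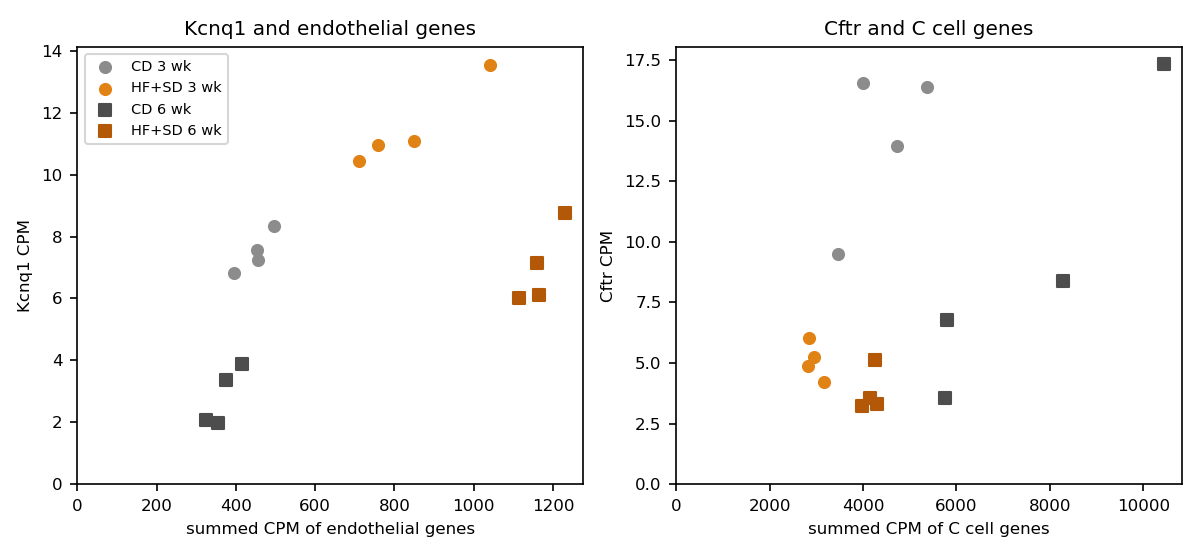
Left, Kcnq1 CPM against the summed CPM of 8 endothelial genes. Right, Cftr CPM against the summed CPM of 7 C cell genes. Points are the 16 libraries, by diet and weeks on diet. Within each group Kcnq1 tends to be high where the endothelial sum is high, and CD mouse M43 (17.3 CPM of Cftr, C cell sum 10448 CPM) lies farthest to the upper right.

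The other genes of the channel families were counted in the same fits. Of 93 listed, 78 had a row and 68 were tested at 6 weeks, 12 of them called higher (17.6%) and 6 lower (8.82%), with a median log2 fold change of 0.06 against -0.01 for all genes. At 3 weeks 67 were tested, 4 called higher (5.97%) and 0 lower by edgeR, with 10 lower at an unadjusted p under 0.05 and 1 called lower by DESeq2. For the difference between the times 0 of 70 were called by edgeR, against 10 larger and 5 smaller at an unadjusted p under 0.05, and DESeq2 called 3 in each direction. Under thyrocyte scaling the split at 6 weeks turned to 2 higher and 23 lower.

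Of the genes listed under mechanosensitive channels, 3 were called at both times. Whether each of the listed genes acts as such a channel in thyroid was not tested. Trpv4, a calcium channel opened by cell swelling, averaged 28.7 CPM in CD mice and 116 CPM in HF+SD mice at 6 weeks, and 50.2 and 133 CPM at 3 weeks, with log2 fold changes of 2.02 and 1.40. Trpc6, a diacylglycerol-gated cation channel, rose by 2.57 and 1.87 on the log2 scale from a mean of 0.693 and 0.296 CPM, and Tmc8 by 1.12 and 1.27. Tmem150c was called at 6 weeks with 1.90. Of 17 genes of this list, Piezo1 and Piezo2 aside, tested at 6 weeks 4 were called higher, and of 16 at 3 weeks 3. This stands beside 6.64% and 3.25% of all tested genes, and this list was not tested against others. Calls in the lower direction were 0 by edgeR and DESeq2 at both times, with 1 gene lower at 6 weeks and 2 at 3 weeks at an unadjusted p under 0.05.

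Among relatives of the sodium channel, Asic3 rose at both times (from a mean of 0.872 to 2.24 CPM at 6 weeks and of 0.449 to 1.12 CPM at 3 weeks), and Scnn1b, a subunit of the epithelial sodium channel, at 6 weeks (1.08, from 75.4 to 159 CPM). Kcne4, the sole further KCNE gene tested, rose by 1.14 on the log2 scale at 6 weeks and had 0.24 at 3 weeks (adjusted p = 0.470, edgeR). The potassium channels Kcnk1 (1.23) and Kcnj16 (1.22) and the anion channel genes Lrrc8c (1.27), Lrrc8d (1.37) and Ttyh3 (1.26) were called higher at 6 weeks. Among 6 other anoctamins 0 were called at either time by edgeR, whereas 3 at 6 weeks and 2 at 3 weeks were lower at an unadjusted p under 0.05, and DESeq2 called 1 lower at 6 weeks.

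The family members called lower at 6 weeks included Clcn1, the chloride channel of skeletal muscle (-5.39), Kcnq5 (-4.78), Kcnma1 (-4.40), Best3 (-1.32) and Hcn4 (-1.12). With the muscle score as a covariate 1 family gene was called lower, and with M22 as the sole CD library 1 as well. The muscle content of the CD libraries moves with these values, and Clcn1 averaged 46.4 CPM in CD and 1.09 CPM in HF+SD mice.

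**Figure D5:**
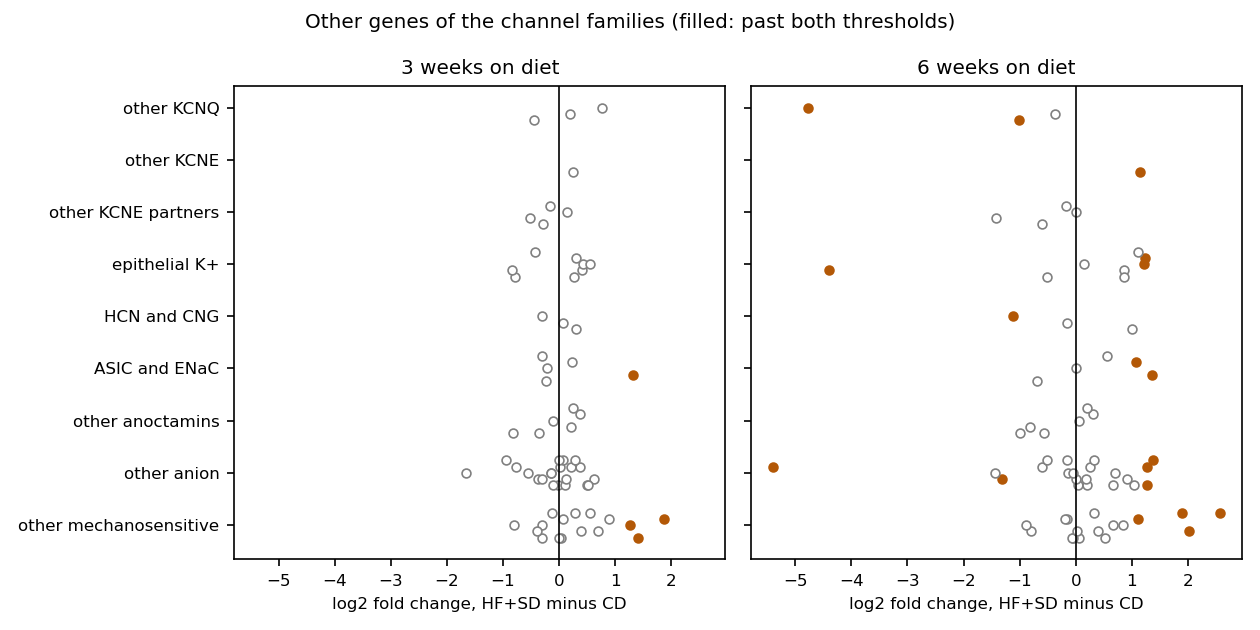
Log2 fold change, HF+SD minus CD, of the other genes of the channel families at 3 and 6 weeks. Each point is a gene, filled where it was called. Of the genes listed as mechanosensitive 3 are filled on the right at 3 weeks and 4 at 6 weeks. The points at the far left at 6 weeks are Clcn1, Kcnq5 and Kcnma1.

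Kcnq1 and Ano1 are known to act beside the genes of iodide handling. Of 12 listed genes 7 were called higher and 1 lower (Duoxa1) at 6 weeks, and 4 higher and 1 lower (Duoxa1) at 3 weeks, with medians of 1.19 and 0.60 against -0.01 for all genes. Slc5a5, the sodium/iodide symporter, went from 155 to 872 CPM at 6 weeks and from 330 to 1690 CPM at 3 weeks, with log2 fold changes of 2.49 and 2.36 (adjusted p = 0.00956 and 0.00833, edgeR). Slc26a4, which encodes the apical iodide exchanger pendrin, rose by 4.26 and 3.00 on the log2 scale from 0.227 and 0.161 CPM. The TSH receptor gene Tshr was called higher at both times, with 1.78 and 1.14 (adjusted p = 0.00239 and 0.0493, edgeR).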

How the data were processed

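Whole thyroid RNA of 16 mice was enriched for poly(A), made into libraries with the NEBNext Ultra II kit and sequenced as 150 bp read pairs. The submitters' processing notes name Trim Galore 0.6.7, STAR, DESeq2 1.36.0, R 4.1.0 and the build mm39. Which counting tool, annotation and gene filter followed is not given in the sources used here. The authors deposited whole-number counts per gene with no normalization, and a normalized signal (counts divided by a size factor per library), used here for 1 alternative only. Samples were grouped by their labels. The paper counts fewer CD mice after 6 weeks and does not say which, so all 4 deposited mice were used.

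Gene symbols came from GENCODE M21 for 20841 of 21640 identifiers, as did union exon lengths for CPM per kb. Diets were compared within each time point (edgeR 4.0.16, R 4.3.3, TMM, filterByExpr, glmQLFit, glmQLFTest, Benjamini-Hochberg adjustment over all tested genes), and the difference between time points by the interaction over 16 libraries. The SE is the absolute log2 fold change divided by the square root of F. Calls need both an adjusted p below 0.05 and a log2 fold change beyond 1 in size. The procedure was tested on simulated counts. Log2 CPM used a prior count of 2. Correlations of a channel with a marker list used the mean log2 CPM of the genes of the list, not their summed CPM. CPM was scaled within a time point. Precision is limited by the spread between 4 mice and, where counts are few (Kcne1 on the CD, and Asic2 in all groups but the HF+SD at 6 weeks), by counting error too.

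The channel genes and gene lists were chosen with earlier results of these data known. Named genes are the 10 channels, the 3 genes of highest correlation with each (genes of at least 1 CPM on average that were tested at both times), called genes of the family lists, and markers whose list moved with a channel. Alternatives were DESeq2 1.42.0, its size factors in edgeR, no filter beyond 1 count, at least 10 counts in every library, no fold minimum, scaling to 8 thyrocyte genes, a muscle score of 15 genes as covariate, limma 3.58.1 on log2 of the signal plus 1, a fit of all 16 libraries, each mouse left out in turn, and M22 as the sole CD library. The unadjusted p was added after the data were seen, and counts at it are given without the share of all genes. Promoter windows are from RefSeq (GRCm38.p6), no window being used here for Kcnq1, Kcne1 and Piezo2. Results of some listed genes are not reported here.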

Additional observations from a re-analysis of the deposited data

Results flagged for a closer look

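In 36 sets of 4 values (9 genes in 4 groups), 3 held a mouse that stood apart from its group by Dixon's ratio of gap to range, which chance gives in about 1 set in 20. Kcne3 was lowest, at 1.92 CPM, in CD mouse M45 at 6 weeks, the library with the most skeletal muscle transcript. Hcn2 was highest, at 5.48 CPM, in CD mouse M22 at 6 weeks, the library with the least muscle transcript of that group. Piezo1 was highest, at 339 CPM, in HF+SD mouse M31 at 3 weeks, the deepest library of the series. What set these mice apart was not tested.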

How the results depend on the processing

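With 4 mice per group the spread between mice limits these results, and muscle transcripts in 3 of the 4 CD libraries at 6 weeks cannot be told apart from that group. No paired analysis was possible because the groups share no mouse numbers. Scaling to thyrocyte genes reversed Piezo1 at 6 weeks (-0.12) and the Cftr difference between the times (-0.091), left 1 of the tested channels called at 3 weeks in place of 2, and gave 2 family genes higher and 23 lower at 6 weeks and 1 and 8 at 3 weeks, against 12, 6, 4 and 0. All genes called were then 8147 in place of 2308 at 6 weeks and 1796 in place of 803 at 3 weeks. With the muscle score 1 family gene was lower at 6 weeks and 1 at 3 weeks, and 1454 genes were called at 6 weeks. With M22 as the sole CD library, whose spread is then taken from the other group, 5 were higher and 1 lower, and 893 genes were called. Without a fold minimum 11 family genes were lower at 6 weeks (3927 genes in all), 11 higher and 3 lower at 3 weeks (2560 in all), and 4 of the tested channels passed at 3 weeks. DESeq2 and the fit without a filter each called 1 family gene lower at 3 weeks. For the difference between times, edgeR called 13 genes in all, DESeq2 1045, DESeq2 size factors in edgeR 65 and the stricter filter 93. Leaving out each mouse in turn, family genes called ranged from 9 to 15 higher and 0 to 7 lower at 6 weeks (0 without M18 or M34, 2 without M35), and from 2 (without M20y) to 4 higher and 0 to 2 (without M54) lower at 3 weeks. The tested channels called ranged from 3 to 4 at 6 weeks, 2 to 3 at 3 weeks and 0 to 2 for the difference. Piezo1 at 3 weeks ranged from -0.22 to 0.0050 and the Cftr difference from -0.055 to 0.69. All genes called ranged from 1468 (without M34) to 3169 at 6 weeks, 623 to 976 at 3 weeks and 1 to 1489 (without M22) for the difference. Apart from fits that leave out a mouse, 257 values were taken as the same. These were tested values of unchanged sign and call, untested values that moved less than the spread, and counts that changed little. They include 3 tested channels called at 6 weeks becoming 2 under thyrocyte scaling, and 12 family genes higher becoming 8 with the muscle score. The medians over all genes under thyrocyte scaling are also among them, although they moved. A further 25 values without a test moved beyond the spread (Asic2 at 3 weeks changed sign, to 0.37 with the muscle score). In addition, 21 passed the threshold newly or counted more, 15 no longer passed or counted less, and 2 values of tested channels turned. The causes were not tested.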

Other observations

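Within groups, over the 16 libraries, channels also ran with the following markers. Hcn2 ran with the level of 10 thyrocyte genes at r = 0.80 and against that of the skeletal muscle genes at r = -0.76, and Kcne1 ran with the thyrocyte genes at r = 0.68. Piezo2 ran with 6 Schwann cell genes at r = 0.70, and those genes summed to 114 to 213 CPM on the CD and 239 to 270 CPM on the HF+SD at 6 weeks, and to 184 to 200 and 193 to 217 CPM at 3 weeks. Of the 6, 0 were called at either time by edgeR or DESeq2, with 1 higher and 1 lower at 6 weeks and 1 higher and 2 lower at 3 weeks at an unadjusted p under 0.05 in edgeR. These are descriptions of 16 libraries that share their tissue content, with no test.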
